A study of Drosophila melanogaster with 14 samples.

Results

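A group of 35 digestive enzyme and lysozyme genes was followed across the transcriptomes of *Drosophila melanogaster* indirect flight muscle (IFM) and larval wing discs. The group held the 16 genes named Jon for the Jonah serine proteases, the 11 genes whose symbols end in Try for trypsin, the 7 genes named Lys for lysozyme, and CG18180, a predicted serine protease gene. It was chosen by these symbols from the 17890 genes of the IFM table, and all 35 were found again among the 17490 genes of the wing disc table by their FlyBase identifiers. The symbols were picked with the values of *Tet null* against wild type IFM in view, so that this contrast is given below as a description and not as a test.

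The study asked what TET, a dioxygenase that oxidises methylated cytosine, does while the flight muscles form. The IFM groups were homozygous *Tet null* pupae, homozygous *Tet CD* pupae, whose GFP-tagged TET protein is catalytic dead, *Tet-GFP* knock-in pupae, which carry GFP on an otherwise intact TET and served as the control of *Tet CD*, and w1118 wild type pupae, with 2 libraries each. Flight muscle fibres were taken from thoraces at 96 h after puparium formation (APF). The wing disc groups were *Tet null* and w1118 wild type discs of wandering larvae of the third instar, with 3 libraries each. The labels do not say how many animals each library pooled, and no label names a sex. For the 1st *Tet null* IFM library the tissue entry reads wing disc. It is treated as IFM by its title, stage and table. It had 18040 RPKM of Act88F, the flight muscle actin, which was at 0.553 RPKM in the 1st *Tet null* wing disc library. The table numbers the second *Tet CD* and *Tet-GFP* libraries 3, and this number is used here.

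In flies, digestive enzymes are made mainly by the midgut. The Jonah proteases and the trypsins are serine proteases secreted into the gut lumen, where they cut dietary protein, and the fly lysozymes, unlike many lysozymes of other animals, work largely as digestive enzymes that break down the walls of ingested bacteria. Many of these genes arose by local duplication and are switched on at particular stages. During metamorphosis the larval midgut is replaced by that of the adult.

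Expression was given as RPKM (reads per kilobase of exon and scaled to library size), a value per length, so that levels can be set side by side between genes. The libraries held about 33300000 to 46700000 reads on genes in IFM and 16900000 to 31500000 in wing discs, so that 1 read on a gene of 1 kb was worth 0.0204 to 0.0280 RPKM in IFM and 0.0320 to 0.0465 RPKM in discs. Among the discs a single library stood apart. In the 2nd wild type disc library only 976 genes were at 0, against 2376 to 3978 in the other 5 disc libraries, and the median of 119 odorant and gustatory receptor genes, which serve here as a gauge of the level of genes that the tissue hardly uses, was 2.12 RPKM, against 0.0273 to 0.132 RPKM in the other 5. Of the 35 genes, 23 had their highest disc value in that library. The counts of disc calls and the median fold changes are therefore given with and without it. In IFM the 2nd *Tet null* library had 1833 genes at 0 and the 1st wild type library 3285, against 4207 to 4801 in the others. Their receptor medians were 0.0870 and 0.0449 RPKM, against at most 0.0142 RPKM in the others. Of the 35 genes, 28 and 27 were above 0 in these libraries, against 14 to 22 in the others.

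The 35 genes lie in 10 places in the dm6 genome when neighbours within 50 kb are joined. The 11 trypsin genes form 1 cluster on 2R (11336840 to 11357537), the 7 lysozyme genes 1 cluster on 3L (1194739 to 1228238), and the Jonah genes lie in 7 places, among them 4 Jon65A genes on 3L (6039155 to 6054443), 3 Jon25B genes on 2L (4949941 to 4955144) and 3 Jon99C genes on 3R (29922216 to 29926189). CG18180 (FBgn0036024, 3L, 9641013 to 9641913, plus strand) lies within the span of fry on the other strand and shares no exon base with it. LysC is annotated as a pseudogene. Several members are close copies of each other, among them gammaTry and deltaTry, Jon99Cii and Jon99Ciii, and LysB, LysC, LysD and LysE, so that reads may be split between the copies and the values of each are uncertain. Opposite-strand neighbours also overlap, with 49 exon bases shared by Jon44E and CG8586 and 15 by deltaTry and CG13202.

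**Figure D1:**
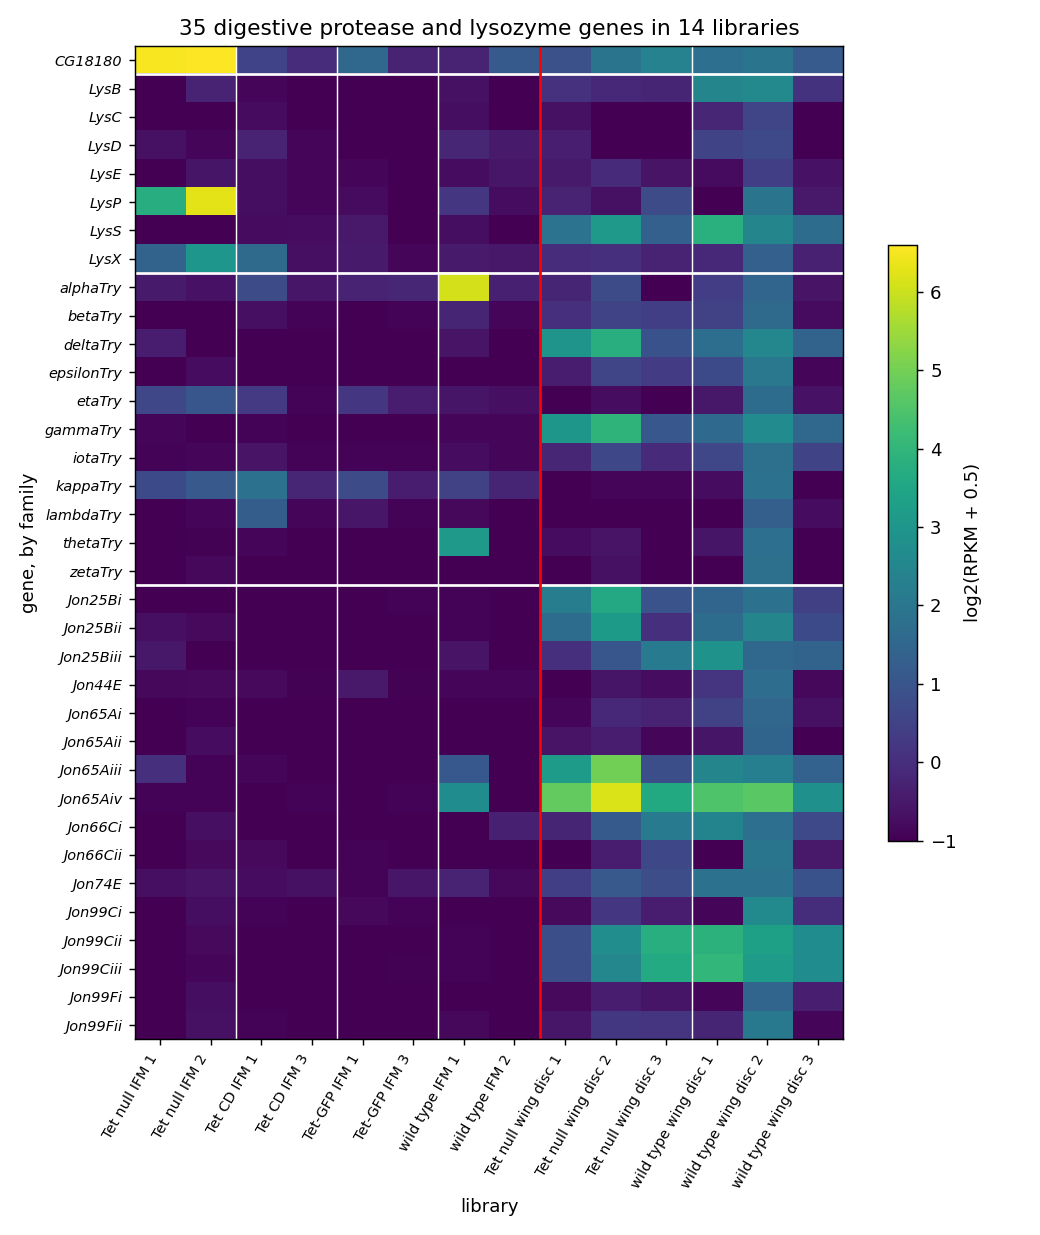
Level of each of the 35 genes (rows, by family) in each of the 14 libraries (columns, *Tet null* left of wild type, IFM left of the red line), as log2(RPKM + 0.5). In IFM the bright cells are CG18180 and LysP in both *Tet null* libraries and alphaTry in 1 wild type library, while in discs Jon65Aiv was at or above 6.56 RPKM in all 6 libraries.

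In IFM most of the group was close to the limit of detection. Of the 35 genes, 25 (14 Jonah, 6 trypsin and 5 lysozyme genes) stayed under 1 RPKM in every IFM library, with LysD the highest of them at 0.384 RPKM. Of the 200 values of these 25 genes, 57.5% were 0 and 158 were under 3 reads, so that differences among them were not detectable at this depth. Only 3 genes reached 10 RPKM in any IFM library, namely CG18180, LysP and alphaTry, and 7 others reached 1 RPKM. Their levels in all 8 libraries are shown in the plot of IFM levels by group.

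**Figure D2:**
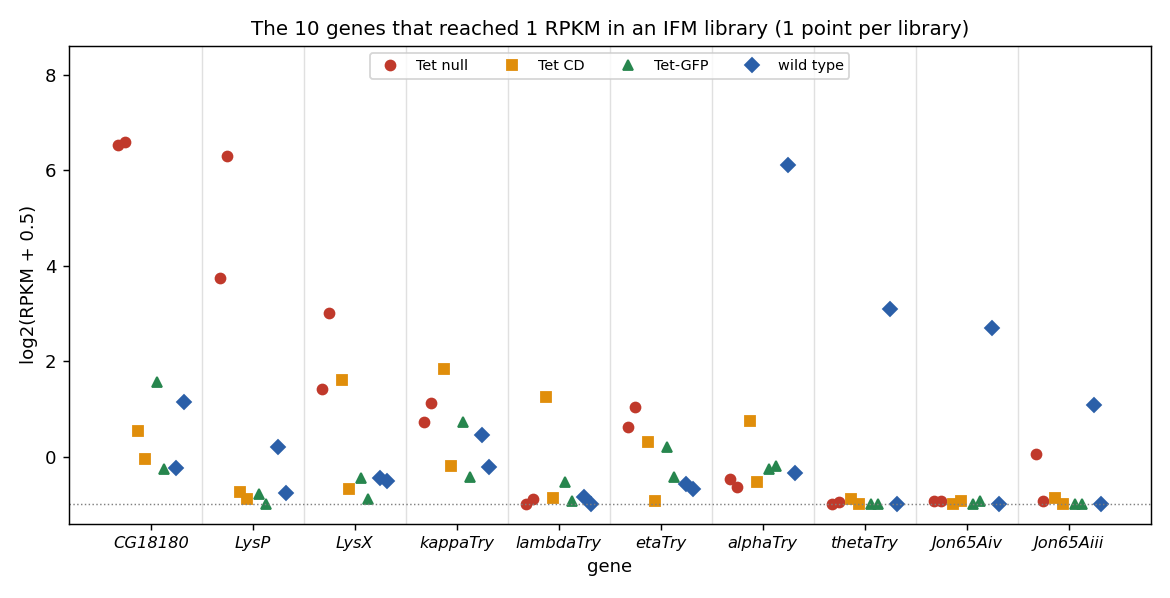
Levels of the 10 genes that reached 1 RPKM in at least 1 IFM library, as log2(RPKM + 0.5), with 1 point per library and the groups in the order of the legend; the dotted line marks a value of 0 RPKM. CG18180, at 91.1 and 96.4 RPKM in *Tet null* IFM, had closely matched replicates, whereas alphaTry, thetaTry and Jon65Aiv stood high in a single wild type library.

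CG18180 was the member with the most even pattern. It had 91.1 and 96.4 RPKM in *Tet null* IFM, 0.953 and 0.471 RPKM in *Tet CD* IFM, 2.44 and 0.332 RPKM in *Tet-GFP* IFM, and 0.351 and 1.71 RPKM in wild type IFM. These values stood for 3828 and 4266 reads in *Tet null* libraries and for 12 to 85 reads in the other 6. Both *Tet null* libraries lay far above all the others, and the 2 *Tet null* values differed by much less than those of any other genotype in proportion. *Tet null* IFM averaged 93.7 ± 3.77 RPKM and wild type IFM 1.03 ± 0.959 RPKM (SD, n = 2 each), a log2 fold change of 6.10 (SE 0.50) on the log2(RPKM + 0.5) scale. Its chromosomal neighbour CG18179, another predicted serine protease gene, had 1.08 and 10.9 RPKM in *Tet null* IFM and at most 0.363 RPKM elsewhere in IFM, whereas fry, a large gene that spans CG18180 and works in cell shape and dendrite tiling, was between 6.48 and 9.60 RPKM in all 8 libraries.

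Of the 7 lysozyme genes, LysP and LysX passed 1 RPKM in IFM. LysP (FBgn0004429, 3L, 1218082 to 1218696), which is known from the adult salivary gland, had 12.8 and 77.9 RPKM in *Tet null* IFM, 0.102 and 0.0384 RPKM in *Tet CD* IFM, 0.0843 and 0 RPKM in *Tet-GFP* IFM, and 0.643 and 0.0910 RPKM in wild type IFM. The groups did not overlap, but the *Tet null* replicates differed 6.09 times, so that the size of the difference from wild type, 5.30 on the log2 scale (SE 0.92), is uncertain. LysX, known from the gut of the metamorphosing fly, had 2.17 and 7.51 RPKM in *Tet null* IFM, 2.56 and 0.125 RPKM in *Tet CD* IFM, 0.230 and 0.0442 RPKM in *Tet-GFP* IFM, and 0.234 and 0.198 RPKM in wild type IFM. For LysX 1 *Tet CD* library thus reached the *Tet null* level and the other did not. LysB, LysC, LysD, LysE and LysS, the lysozymes known from the gut, stayed under 1 RPKM in all 8 IFM libraries.

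Among the trypsin genes different members led in different libraries. alphaTry (2R, 11344260 to 11345119) had 0.224 and 0.142 RPKM in *Tet null* IFM, 1.17 and 0.192 RPKM in *Tet CD* IFM, 0.331 and 0.376 RPKM in *Tet-GFP* IFM, and 68.7 and 0.293 RPKM in wild type IFM. It came from 2241 reads in the 1st wild type library and 9 in the 2nd, a ratio of 235 between replicates. thetaTry followed the same library, with 7.98 RPKM (317 reads) in the 1st wild type library and 0 in the 2nd, where 3 reads would have shown, so that it was at least 99.5 times higher in the 1st. It was at or below 0.0400 RPKM in the other 7 libraries. Jon65Aiv, a Jonah protease, repeated this with 6.01 RPKM in the 1st wild type library, 0 in the 2nd and at most 0.0275 RPKM in the other genotypes. Jon65Aiii had 0.539 and 0.0233 RPKM in *Tet null* IFM, 0.0479 and 0 RPKM in *Tet CD* IFM, 0 in both *Tet-GFP* libraries, and 1.63 and 0 RPKM in wild type IFM. These 4 genes were thus high in 1 wild type library and not in its replicate.

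The other trypsin genes that reached 1 RPKM were lower. kappaTry had 1.14 and 1.69 RPKM in *Tet null* IFM, 3.09 and 0.378 RPKM in *Tet CD* IFM, 1.16 and 0.239 RPKM in *Tet-GFP* IFM, and 0.872 and 0.358 RPKM in wild type IFM. lambdaTry, its neighbour in the cluster, had 0 and 0.0428 RPKM in *Tet null* IFM, 1.87 and 0.0496 RPKM in *Tet CD* IFM, 0.191 and 0.0262 RPKM in *Tet-GFP* IFM, and 0.0554 and 0 RPKM in wild type IFM. etaTry had 1.04 and 1.54 RPKM in *Tet null* IFM, 0.736 and 0.0259 RPKM in *Tet CD* IFM, 0.654 and 0.246 RPKM in *Tet-GFP* IFM, and 0.174 and 0.123 RPKM in wild type IFM. In the *Tet CD* pair the library numbered 1 was above that numbered 3 for all 3 genes, and likewise for alphaTry, LysX and CG18180.

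Over the group as a whole, the *Tet null* and wild type IFM ranges of LysP, LysX, CG18180, etaTry, kappaTry, Jon44E and Jon25Bii did not overlap and were higher in *Tet null* (7 of 35, where 24.5% of all genes above 0 did so), and those of alphaTry, betaTry and LysD were lower (3 of 35, against 21.3%). With 9 members at a mean of 0.5 RPKM or more, 3 (CG18180, LysP and etaTry) passed limma's threshold of an adjusted p under 0.05 with a fold change over 1.5 in the higher direction and 0 in the lower, where 5.5% and 2.79% of all 8466 genes did. With any 1 library left out, the log2 fold change ranged from 5.41 to 6.79 for CG18180 and from 4.02 to 6.58 for LysP. For etaTry it ranged from 1.39 to 1.66 where the gene was still tested. Nothing is read from the counts or from these values, since this contrast chose the members. The median log2 fold change over all 35 was 0.05, against 0.03 over all genes above 0.

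**Figure D3:**
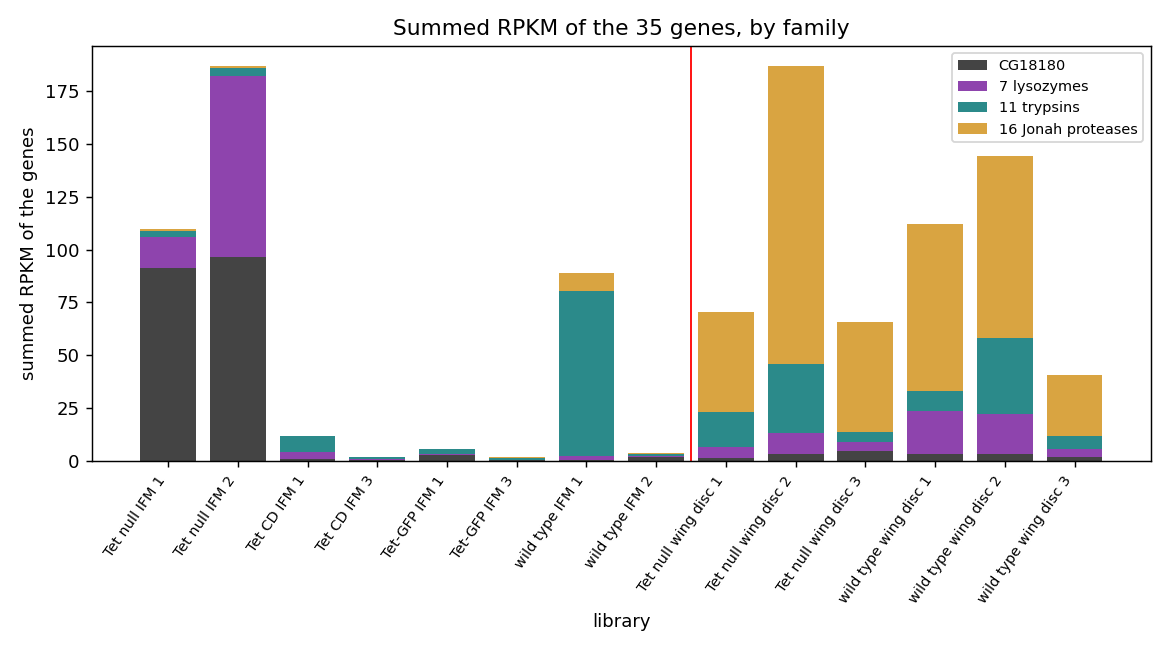
Summed RPKM of the 35 genes in each library, stacked by family, with *Tet null* left of wild type and IFM left of the red line. The sum was 110 and 187 RPKM in *Tet null* IFM, mostly CG18180 and lysozyme, and 88.8 RPKM in 1 wild type IFM library, mostly trypsin, while in discs the Jonah proteases led in all 6 libraries.

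The summed level showed how few genes carried it. It was 110 and 187 RPKM in *Tet null* IFM, 11.8 and 1.69 RPKM in *Tet CD* IFM, 5.72 and 1.63 RPKM in *Tet-GFP* IFM, and 88.8 and 3.72 RPKM in wild type IFM. CG18180 made up 82.8% and 51.5% of it in the *Tet null* libraries and alphaTry 77.4% in the 1st wild type library. The high sums of *Tet null* and of that wild type library were therefore made of different genes, and the wild type sums (46.3 ± 60.1 RPKM, SD, n = 2) spanned a wider range than the *Tet null* sums (149 ± 54.6 RPKM, SD, n = 2) in relation to their mean.

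Other genes of the gut were set beside the group, as whole lists. The 15 gut serine proteases outside the group summed to 38.5 and 73.3 RPKM in *Tet null* IFM, 99.0 and 7.003 RPKM in *Tet CD* IFM, 31.2 and 10.9 RPKM in *Tet-GFP* IFM, and 37.5 and 11.9 RPKM in wild type IFM. Here the highest library was *Tet CD*, led by the trypsin-type protease gene Try29F at 61.0 RPKM, so that this list did not share the pattern of CG18180. The 20 gut carbohydrases and lipases summed to 148 and 26.5 RPKM in *Tet null* IFM and to between 14.7 and 26.2 RPKM in the other 6 libraries, the difference lying in the amylase genes Amy-p (62.6 RPKM) and Amy-d (58.4 RPKM) of 1 *Tet null* library, which were at 4.26 and 2.73 RPKM or less in all others. The 6 other lysozyme family genes stayed between 4.21 and 7.07 RPKM in sum in all 8 IFM libraries. The 7 midgut amidase and peritrophic matrix genes summed to 7.04 and 4.40 RPKM in *Tet null* IFM, 8.71 and 11.8 RPKM in *Tet CD* IFM, 6.67 and 6.15 RPKM in *Tet-GFP* IFM, and 15.2 and 11.2 RPKM in wild type IFM.

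Genes listed for midgut cell identity were also detected at low level. The 19 genes of midgut cell identity summed to 41.1 and 42.2 RPKM in *Tet null* IFM, 41.0 and 14.9 RPKM in *Tet CD* IFM, 20.2 and 18.0 RPKM in *Tet-GFP* IFM, and 58.7 and 14.7 RPKM in wild type IFM. Between 4 and 11 of the 19 were at 1 RPKM or more in a library and at most 2 were at 0. In *Tet null* IFM, Myo31DF (8.06 and 6.76 RPKM) and pros (6.50 and 7.36 RPKM) were among the highest. GATAe, lab and cad stayed at 0.595 RPKM or less there. Whether the sum stands for midgut cells was not tested. Of the 19, mesh, Tsp2A and Ssk were highest in the 1st wild type library, the one with high alphaTry, thetaTry and Jon65Aiv. With hoka they build the smooth septate junctions that join gut epithelial cells. Myo31DF, GATAe, esg, lab, Tk, AstC and NPF were also highest in that library. The 2nd *Tet null* library was highest for pros, AstA, Dh31, Mip, CCHa1 and Vha100-4. For nub and CCHa2 a *Tet CD* library was highest, and for cad a *Tet-GFP* library. The 4 junction genes, brought together after their values had been seen, summed to 17.9 and 10.9 RPKM in *Tet null* IFM, 26.1 and 2.91 RPKM in *Tet CD* IFM, 12.3 and 7.60 RPKM in *Tet-GFP* IFM, and 52.1 and 8.99 RPKM in wild type IFM. Their part in the levels of the members was not tested. In such bulk libraries, cells of a type being fewer and their holding less RNA each cannot be told apart. Genes listed for other tissues were also detected. The 7 neuron genes, led by Syt1 and nSyb of synaptic vesicles, summed to 68.8 and 61.3 RPKM in *Tet null* IFM, 30.4 and 18.3 RPKM in *Tet CD* IFM, 9.48 and 27.8 RPKM in *Tet-GFP* IFM, and 10.45 and 9.88 RPKM in wild type IFM, with none at 0. The sum was thus highest in the libraries with high CG18180. elav, of the same list, did not follow it, with 1.32 and 2.09 RPKM in *Tet null* IFM and 1.40 to 1.84 RPKM in the others. The 10 fat body genes summed to 114.97 and 24.2 RPKM in *Tet null* IFM, 177 and 304 RPKM in *Tet CD* IFM, 81.7 and 67.4 RPKM in *Tet-GFP* IFM, and 77.7 and 157 RPKM in wild type IFM, and the 7 hemocyte genes to 7.498 to 15.99 RPKM. Their part in the levels of the members was not tested either. The 10 flight muscle markers were at 1 RPKM or more in all 8 IFM libraries, and summed to 36255 to 46642 RPKM. The 9 wing disc genes summed to 23.8 to 34.3 RPKM, and the 10 salivary gland genes, which encode glue and related proteins of the larval gland, to 1.88 RPKM or less.

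*Tet CD* against *Tet-GFP* IFM, the contrast for the loss of catalytic activity alone, called 0 members in either direction. Of all 8141 genes tested by limma 0% were called, so nothing is read from this for the members. An unadjusted p under 0.05 was found for 494 of these genes and for 0 of the 5 members tested. The log2 fold changes had wide 95% intervals, with -0.40 (-2.40 to 1.61) for CG18180, 1.14 (-1.31 to 3.58) for LysX, 0.92 (-1.36 to 3.20) for lambdaTry, 0.68 (-1.76 to 3.11) for kappaTry and 0.33 (-1.08 to 1.75) for alphaTry. Whether the 6.10 of CG18180 in *Tet null* against wild type differs from its value here was not tested. Without overlap between groups, LysD was higher and Jon99Ci lower in *Tet CD* (1 of 25 members above 0 each way, where 15.7% and 15.6% of genes were), both at 0.349 RPKM or less.

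The control lines were also compared, *Tet-GFP* against wild type, in a contrast that shares its wild type libraries with that of *Tet null*. It called 0 members and 0% of the 8156 genes tested by limma, with 843 genes and 0 of the 5 members tested at an unadjusted p under 0.05. The log2 fold changes were 0.19 (95% interval -2.14 to 2.53) for CG18180, 0.03 (-1.42 to 1.48) for kappaTry, -1.81 (-5.57 to 1.94) for Jon65Aiv, -2.04 (-6.17 to 2.09) for thetaTry and -3.12 (-9.59 to 3.36) for alphaTry. The last 3 are the genes that stood high in a single wild type library, and their intervals span both directions. Of the 30 members above 0, etaTry and Jon99Ci were higher and betaTry, gammaTry, iotaTry, LysD, LysE and LysP lower in *Tet-GFP* without overlap (where 14.8% and 21.3% of genes were), all under 1 RPKM.

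Genes with a pattern like the group's mean in IFM were looked for by Pearson's r over the 8 libraries, among 530 genes that reached 10 RPKM and spanned at least 3 on the log2 scale. The 10 most alike were CG34188 (r = 0.917), CG15347, trbl, tmod, bond, wdp, CG1907, Stacl, LpR1 and CG31431 (r = 0.877), none of them a digestive enzyme gene of the lists above. CG34188 had 15.9 and 19.05 RPKM in *Tet null* IFM, 5.46 and 0.995 RPKM in *Tet CD* IFM, 7.65 and 1.48 RPKM in *Tet-GFP* IFM, and 12.8 and 1.67 RPKM in wild type IFM. tmod, whose protein caps the pointed ends of actin filaments, stood at 37.2 and 45.4 RPKM in the *Tet null* libraries and at 14.02 and 5.71 RPKM in the wild type libraries. In all 10 genes the libraries numbered 1 of *Tet CD*, *Tet-GFP* and wild type were above those numbered 3 or 2. The correlations are over libraries that share genotype and preparation and are given as a description.

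In wing discs the group was broader and its make-up was different. The sums were 70.3, 187 and 65.8 RPKM in *Tet null* discs and 112, 144 and 40.4 RPKM in wild type discs, and overlapped (107.7 ± 68.7 RPKM in *Tet null* and 99.0 ± 53.2 RPKM in wild type, SD, n = 3 each). In the *Tet null* libraries 10, 16 and 14 members reached 1 RPKM, against 16, 33 and 12 in the wild type libraries. Over both genotypes 33 members reached 1 RPKM somewhere, but only 19 did so without the 2nd wild type library, whose median member was at 3.06 RPKM beside the receptor level of 2.12 RPKM. CG18180, the leading gene of *Tet null* IFM, was low in discs, with 1.35, 3.32 and 4.62 RPKM in *Tet null* and 2.94, 3.33 and 1.77 RPKM in wild type, and its log2 fold change was 0.09 (95% interval -0.56 to 0.75, limma). LysP, the other, had 0.331, 0.135 and 1.20 RPKM in *Tet null* discs and 0, 3.30 and 0.216 RPKM in wild type discs (-0.20, -1.86 to 1.46). Neither gene was called in discs.

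**Figure D4:**
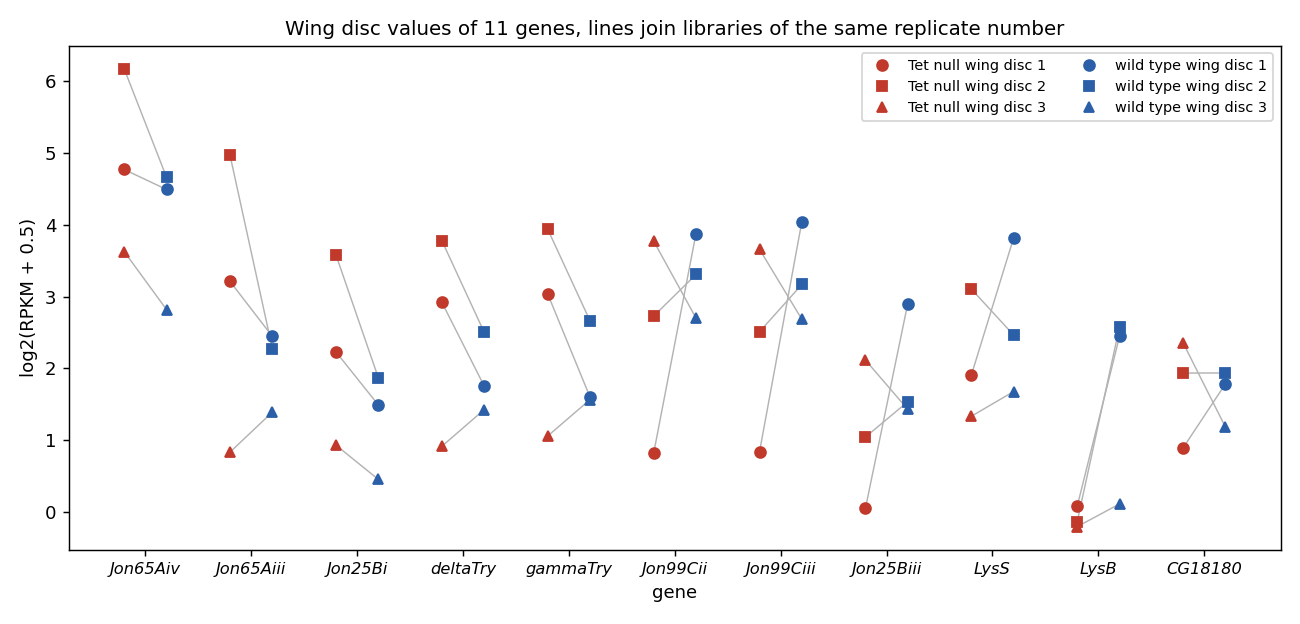
Disc levels of 11 genes as log2(RPKM + 0.5), with 1 point per library, *Tet null* (red) left of wild type (blue), and grey lines joining libraries of the same replicate number. Jon65Aiv and Jon25Bi were higher in *Tet null* in all 3 pairs and LysB was lower in all 3, while Jon99Cii and Jon99Ciii were lower in 2 pairs and higher in the other.

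The Jonah proteases were the most abundant members in discs. Jon65Aiv had 26.8, 71.7 and 11.9 RPKM in *Tet null* discs and 22.0, 24.9 and 6.56 RPKM in wild type discs, and was the top member of 5 of the 6 libraries. Jon65Aiii had 8.76, 30.8 and 1.28 RPKM in *Tet null* and 4.94, 4.33 and 2.12 RPKM in wild type. Jon25Bi had 4.19, 11.5 and 1.40 RPKM in *Tet null* and 2.31, 3.16 and 0.868 RPKM in wild type. All 3 were highest in the 2nd *Tet null* library, and their groups overlapped. Jon25Bii, next to Jon25Bi, had 2.73, 8.28 and 0.537 RPKM in *Tet null* and 2.71, 5.03 and 1.14 RPKM in wild type. Among the trypsins, gammaTry had 7.70, 14.8 and 1.58 RPKM in *Tet null* and 2.53, 5.82 and 2.46 RPKM in wild type. deltaTry, its near copy, had 7.07, 13.2 and 1.38 RPKM in *Tet null* and 2.87, 5.17 and 2.18 RPKM in wild type. The 2 *Tet null* libraries numbered 1 and 2 were above those of wild type with the same number for gammaTry and deltaTry, and the 3rd was below.

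A second set of Jonah genes had lower means in *Tet null* than in wild type discs. None of them was called with all libraries and no block, and each was higher in *Tet null* between the 3rd libraries. Jon99Cii had 1.26, 6.12 and 13.2 RPKM in *Tet null* discs and 14.2, 9.41 and 6.01 RPKM in wild type discs. Jon99Ciii, its near copy, had 1.29, 5.20 and 12.1 RPKM in *Tet null* and 16.02, 8.49 and 5.92 RPKM in wild type. Both were highest in the 3rd *Tet null* library within that genotype, where Jon65Aiii was lowest. Jon25Biii had 0.533, 1.56 and 3.83 RPKM in *Tet null* and 6.97, 2.40 and 2.19 RPKM in wild type. Jon66Ci had 0.364, 1.74 and 3.97 RPKM in *Tet null* and 4.83, 2.89 and 1.11 RPKM in wild type. Both had their highest *Tet null* value in the 3rd library and their highest wild type value in the 1st, as Jon99Cii and Jon99Ciii did, unlike Jon25Bi and Jon25Bii beside Jon25Biii. Over the 6 disc libraries, Pearson's r of log2(RPKM + 0.5) was between 0.861 and 0.994 among Jon65Aiv, Jon65Aiii, Jon25Bi, gammaTry and deltaTry, 0.993 between Jon99Cii and Jon99Ciii, and between -0.593 and -0.194 from one set to the other. For LysS, r was between 0.29 and 0.596 with these genes of both sets. These are correlations within 6 libraries that share preparation, and gammaTry with deltaTry and Jon99Cii with Jon99Ciii also share sequence.

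The lysozymes LysS and LysB had the highest values of their cluster in discs. LysS, known from the larval midgut, had 3.24, 8.11 and 2.02 RPKM in *Tet null* discs and 13.6, 5.02 and 2.70 RPKM in wild type discs. LysB had 0.555, 0.408 and 0.367 RPKM in *Tet null* (10, 6 and 7 reads) and 4.95, 5.48 and 0.579 RPKM in wild type (65, 76 and 8 reads). Every *Tet null* value of LysB was below every wild type value, but the 3rd wild type library was close to the *Tet null* ones. LysX had 0.481, 0.516 and 0.341 RPKM in *Tet null* and 0.412, 2.03 and 0.314 RPKM in wild type, and LysD had 0.283, 0 and 0 RPKM in *Tet null* and 0.969, 1.10 and 0 RPKM in wild type. LysC and LysE stayed under 1 RPKM in all 6 libraries.

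Apart from Jon74E, the remaining members reached 1 RPKM mainly in the 2nd wild type library. Jon74E had 0.830, 1.69 and 1.24 RPKM in *Tet null* discs and 3.08, 3.12 and 1.40 RPKM in wild type discs. iotaTry had 0.373, 1.07 and 0.431 RPKM in *Tet null* and 1.02, 2.96 and 0.974 RPKM in wild type. epsilonTry had 0.245, 1.002 and 0.771 RPKM in *Tet null* and 1.12, 3.61 and 0.0533 RPKM in wild type. These 3 also passed 1 RPKM outside that library, in wild type and in *Tet null* discs. betaTry had 0.538, 0.970 and 0.837 RPKM in *Tet null* and 0.912, 2.59 and 0.0826 RPKM in wild type. alphaTry had 0.355, 1.21 and 0 RPKM in *Tet null* and 0.811, 2.31 and 0.154 RPKM in wild type. Jon66Cii had 0, 0.250 and 1.08 RPKM in *Tet null* and 0, 3.40 and 0.213 RPKM in wild type. alphaTry and Jon66Cii thus passed 1 RPKM in 1 *Tet null* library as well. Jon99Ci had 0.0748, 0.642 and 0.247 RPKM in *Tet null* and 0.0513, 5.64 and 0.488 RPKM in wild type. Jon99Fii had 0.186, 0.683 and 0.631 RPKM in *Tet null* and 0.357, 3.67 and 0.0485 RPKM in wild type. Jon99Fi had 0.0727, 0.267 and 0.172 RPKM in *Tet null* and 0.0498, 2.31 and 0.285 RPKM in wild type. The Jon99 genes other than Jon99Cii and Jon99Ciii were thus at or above 1 RPKM in that library alone.

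The same held for the other Jonah and trypsin genes. Jon44E had 0, 0.179 and 0.0917 RPKM in *Tet null* discs and 0.633, 2.78 and 0.0633 RPKM in wild type discs. Jon65Ai had 0.0357, 0.393 and 0.337 RPKM in *Tet null* and 0.880, 2.36 and 0.140 RPKM in wild type. Jon65Aii had 0.163, 0.250 and 0.0384 RPKM in *Tet null* and 0.168, 2.22 and 0 RPKM in wild type. The remaining trypsins were at or near 0 outside it. kappaTry had 0, 0.0444 and 0.0342 RPKM in *Tet null* and 0.0993, 3.06 and 0 RPKM in wild type. zetaTry had 0, 0.132 and 0 RPKM in *Tet null* and 0, 2.98 and 0 RPKM in wild type. thetaTry had 0.0972, 0.159 and 0 RPKM in *Tet null* and 0.178, 2.95 and 0 RPKM in wild type. Set beside the receptor level of 2.12 RPKM, these values of the 2nd wild type library were 2.95 to 3.06 RPKM. etaTry had 0, 0.0913 and 0 RPKM in *Tet null* and 0.204, 2.71 and 0.146 RPKM in wild type, and lambdaTry had 0 in all 3 *Tet null* libraries and 0, 1.94 and 0.0929 RPKM in wild type. In that library 14 of the 35 members were at or below the 90th percentile of the receptor genes, 2.94 RPKM.

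*Tet null* discs were tested against wild type discs. The members were picked with the IFM contrast in view and not this one, although earlier results of these data were known. With all 6 libraries, limma tested 30 members and called 0 higher, where 1.67% of the 12631 genes tested were, and 1 lower, where 2.48% were; 5 members had an unadjusted p under 0.05. The member called was LysB, with a log2 fold change of -1.80 (SE 0.51, 95% interval -2.87 to -0.74, adjusted p = 0.049). Without the 2nd wild type library LysB was at -1.37 and no longer called (adjusted p = 0.28, limma), and 0 of the 18 members still testable were called, where 1.31% of genes were higher and 1.67% lower, or had an unadjusted p under 0.05. Without the 1st wild type library LysB was also lost, 3 members were called higher, and leaving out *Tet null* libraries gave up to 5 higher and 4 lower. In these fits limma gave a gene's own spread no weight against that of genes at the same level. The share of all genes called in them was not worked out, so nothing is read from these counts. The median log2 fold change of the 30 members was -0.58, against -0.08 over all genes tested, and without the 2nd wild type library 0.10 over 18 members, against 0.02. No member was higher without overlap and 2 were lower, LysB and etaTry, where 9.96% and 11.3% of all genes above 0 were, with all 6 libraries.

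In discs the deviations of same-numbered libraries correlated (r = 0.176, 0.303 and 0.155), but so did those of *Tet null* 1 with wild type 3 (r = 0.191). For the other unlike pairs r lay between -0.306 and 0.0623. No label says that the number marks a shared batch. With the replicate number as a block limma called 5 members higher, where 2.72% of genes were, and 4 lower, where 4.69% were. Those higher were Jon65Aiv (0.87, adjusted p = 9.4e-08), Jon65Aiii (0.97, 8.9e-06), Jon25Bi (0.98, 0.0012), gammaTry (0.74, 0.0034) and deltaTry (0.64, 0.018), and those lower were LysB (-1.80, 0.00037), Jon99Ciii (-0.96, 1.4e-06), Jon99Cii (-0.86, 2.2e-05) and Jon25Biii (-0.89, 0.014). In this fit, with 2 residual degrees of freedom per gene, limma gave the gene's own spread no weight against that of genes at the same level. For the 9 members called, the SE from a member's own 3 pairs was wider than that of the fit. Over the 3 pairs, Jon65Aiv and Jon25Bi were higher in 3 of 3, with a mean of 0.87 (SE 0.36) and 0.98 (SE 0.38), and LysB was lower in 3 of 3, with a mean of -1.80 (SE 0.75). Also below wild type in 3 of 3 pairs, but not called with or without the block, were alphaTry (-0.57, SE 0.097 from its pairs), iotaTry (-0.87, SE 0.14), Jon74E (-0.76, SE 0.38) and etaTry (-1.10, SE 0.67). For alphaTry and iotaTry the SE of the blocked fit, 0.71 and 0.50, was wider than that of their own pairs. Jon65Aiii (0.97, SE 0.94), gammaTry (0.74, SE 0.62) and deltaTry (0.64, SE 0.58) were higher in 2 of 3, and Jon99Cii (-0.86, SE 1.20), Jon99Ciii (-0.96, SE 1.218) and Jon25Biii (-0.89, SE 1.04) lower in 2 of 3. Without the 2nd wild type library the block called 0 members of the 18 tested by limma (1.53% of genes were higher and 1.78% lower), 3 of which (Jon65Aiv, Jon25Bi and LysS) had an unadjusted p under 0.05.

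**Figure D5:**
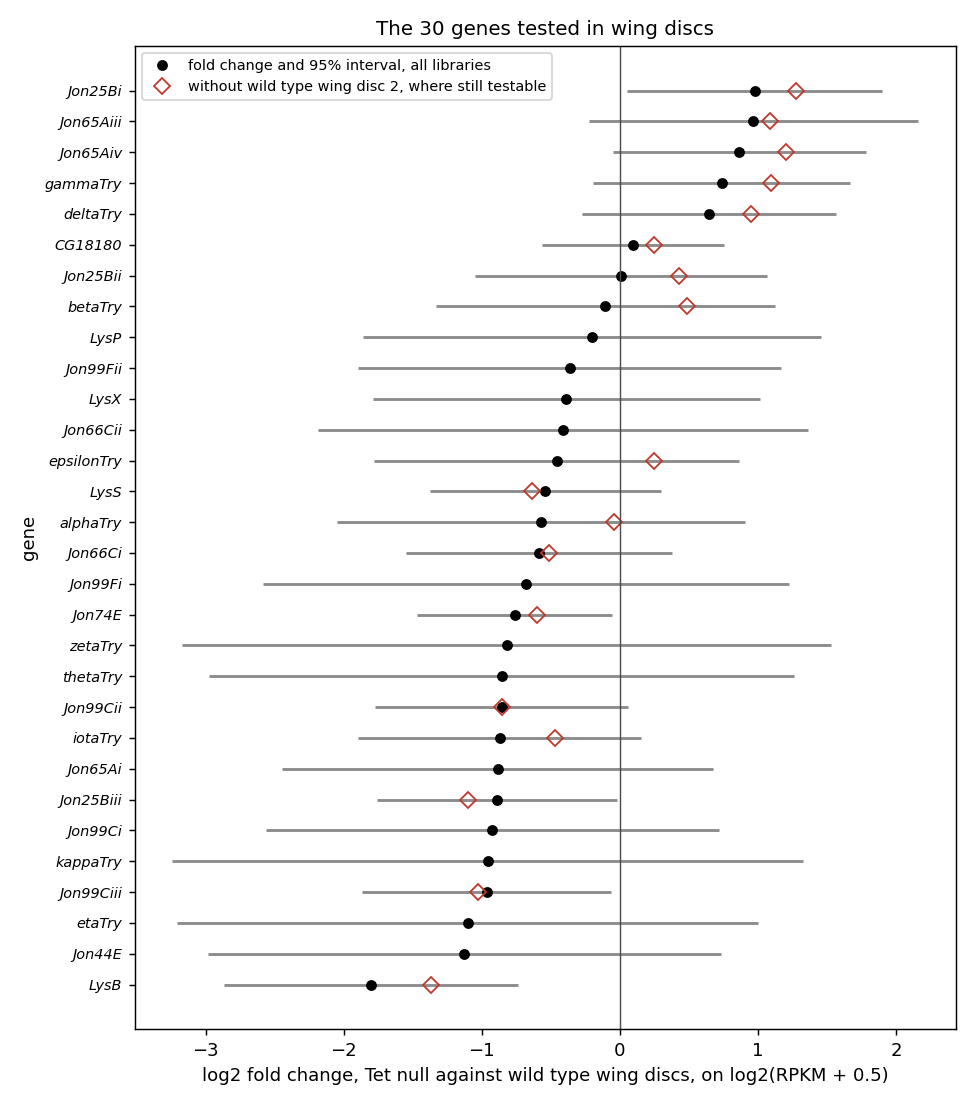
Log2 fold changes of the 30 members tested, *Tet null* against wild type discs, with 95% intervals from limma (black points, grey lines), and the same without the 2nd wild type library for the 18 members that were still testable (red diamonds). Only LysB, Jon25Bi, Jon99Ciii, Jon25Biii and Jon74E have intervals that exclude 0, and 12 members are left without a diamond.

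Signs of other tissues were also present in discs. The 10 salivary gland genes summed to 155, 250 and 288 RPKM in *Tet null* discs and 204, 269 and 109 RPKM in wild type discs, and the 10 fat body genes to 294, 238 and 354 RPKM in *Tet null* and 129, 105 and 49.6 RPKM in wild type, so that every *Tet null* library was above every wild type library for the fat body list. The gut serine proteases outside the group summed to 10.7, 17.8 and 10.45 RPKM in *Tet null* discs and to 13.6, 43.8 and 11.5 RPKM in wild type discs. Of these, yip7, a protease gene next to the Jon65A cluster, had 2.89, 8.46 and 1.59 RPKM in *Tet null* and 2.93, 3.56 and 1.03 RPKM in wild type, and was highest in the 2nd *Tet null* library, as Jon65Aiv and Jon65Aiii were. All the other genes of that list were highest in the 2nd wild type library, where the receptor level was raised. The 7 hemocyte genes summed to 42.6, 60.5 and 32.2 RPKM in *Tet null* discs and 22.3, 28.8 and 11.6 RPKM in wild type discs. The 9 flight muscle genes in the disc table summed to 43.1 to 106 RPKM and the 8 wing disc genes to 250 to 344 RPKM. The part of these tissues in the levels of the members was not tested.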

How the data were processed

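Total RNA of dissected tissue was sequenced from Ovation SoLo libraries. According to the study's methods and the submitters' processing notes, reads were trimmed, aligned to dm6 with HISAT2 2.1.0 and counted per gene with HTSeq 0.11.2. The authors deposited RPKM values in 1 table per tissue, so comparisons stay within a table, and no counts were used. Reads per gene were recovered as RPKM times exon length (Ensembl release 115), which gave whole numbers within 0.05 reads for 98.0% of the members' values under 50 reads.

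Genes with a mean of at least 0.5 RPKM in the libraries compared were tested with limma 3.58.1 (R 4.3.3) on log2(RPKM + 0.5), with the trend and Benjamini-Hochberg adjustment over all genes, and called where the adjusted p was below 0.05 and the change exceeded 1.5-fold. A fold change on this scale understates the change of low genes. The script was tested on simulated data. Members, gene lists and tests were chosen with earlier results of these data known. Members were named with all libraries where they reached 10 RPKM in IFM (or, after the values were seen, 1 RPKM) or 1 RPKM in discs. The 10 other genes most like the members' mean profile in IFM were named by Pearson's r. In discs, same-numbered libraries correlated in their deviations (r = 0.176, 0.303 and 0.155), so the number was also fitted as a block. *Tet null* 1 also correlated with wild type 3 (r = 0.191). The p-values of limma set a change against the spread between these libraries, drawn toward that of genes at the same level. With the disc block only the latter counted.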

Additional observations from a re-analysis of the deposited data

Results flagged for a closer look

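For etaTry, a trypsin gene, the *Tet null* libraries lay on opposite sides of the wild type libraries in the 2 tissues. In IFM both *Tet null* values (1.04 and 1.54 RPKM) were above both wild type values (0.174 and 0.123 RPKM), with a log2 fold change of 1.45, in the contrast with which the members were chosen. In wing discs all 3 *Tet null* values (0, 0.0913 and 0 RPKM, from 0, 2 and 0 reads) were below all 3 wild type values (0.204, 2.71 and 0.146 RPKM, from 4, 56 and 3 reads), with a log2 fold change of -1.10 (95% interval -3.20 to 1.002, adjusted p = 0.59, limma), which was not called. Without the 2nd wild type disc library etaTry was below the limit on low values and could not be tested. The difference between tissues was not tested, since the tables were normalized separately, and 2 of the disc groups' 6 values were 0. With 2 or 3 libraries per group, no group was large enough to look for a library outside the range of its replicates.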

How the results depend on the processing

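Members called higher in *Tet null* than in wild type IFM numbered 3, and 1 with no limit on low values. Leaving out an IFM library left 1 in its group, so that no count is given for those fits. In discs the replicate block called 5 higher and 4 lower, as given above. Leaving out 1 disc library at a time called 0 to 5 higher (2 without *Tet null* 1, 5 without *Tet null* 3, 3 without wild type 1) and 0 to 4 lower (4 without *Tet null* 2 or 3, 0 without wild type 1 or 2). Except without wild type 2 or 3, these fits gave a gene's own spread no weight. The share of all genes called is given only without wild type 2, so nothing is read from these counts. LysB was lost, leaving 0 lower, with a constant of 0.1, with no limit on low values, with a mean of at least 1 RPKM, without the trend, with the receptor level subtracted (chosen after seeing the data) and with the block without wild type 2. The cause was not tested. The replicate block left the IFM counts of members called as they were, but in *Tet null* against wild type etaTry was lost (adjusted p = 0.063, limma) and LysX gained (adjusted p = 0.043). Same-numbered IFM libraries correlated at 0.0864 (*Tet null* and wild type) and 0.475 (*Tet CD* and *Tet-GFP*). No paired fit was made for *Tet-GFP* against wild type, whose columns share a single number.

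Rescaled to a common total, the mean summed level was 246 RPKM in *Tet null* IFM, 182 RPKM in *Tet null* discs and 216 RPKM in wild type discs. Without mitochondrial genome transcripts it was 559 RPKM in *Tet null*, 23.8 RPKM in *Tet CD*, 11.4 RPKM in *Tet-GFP* and 170 RPKM in wild type IFM. In the disc table these transcripts are listed at 0. With each library left out, the means ranged from 110 to 187 RPKM (*Tet null* IFM), 1.69 to 11.8 RPKM (*Tet CD*), 1.63 to 5.72 RPKM (*Tet-GFP*), 3.72 to 88.8 RPKM (wild type IFM), 68.0 to 129 RPKM (*Tet null* discs) and 76.4 to 128 RPKM (wild type discs).

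Some log2 fold changes reversed in sign, none of them for a member called in the same comparison with all libraries and no block. With each library left out they ranged from -1.53 to 0.011 for Jon65Aiii (*Tet null* IFM), from -1.31 to 0.51 for CG18180 and -0.34 to 1.69 for kappaTry (*Tet CD*), from -0.72 to 1.10 for CG18180 and -0.31 to 0.615 for kappaTry (*Tet-GFP*), and in discs from -0.015 to 2.05 for Jon65Aiii, -0.75 to 0.79 for Jon25Bii, -0.22 to 0.51 for CG18180, -0.77 to 0.10 for LysP, -0.72 to 0.48 for betaTry, -1.145 to 0.041 for Jon66Ci, -1.20 to 0.25 for epsilonTry and -1.04 to 0.043 for LysS. A constant of 0.1 gave -0.029 for kappaTry in *Tet-GFP*, and in discs -0.079 for Jon25Bii, 0.10 for LysP and 0.12 for betaTry. Subtracting the receptor level gave 0.46 for betaTry, and the block without wild type 2 gave -0.32 for Jon25Bii, 0.38 for betaTry and 0.040 for epsilonTry. Of 402 values in discs 350 kept both direction and side of the threshold, and in IFM 92 of 110, 57 of 59 and 51 of 55.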

Other observations

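The genes most like single members in IFM, chosen after the values had been seen and given by Pearson's r over the same 8 libraries, differed between members. CG18180 was nearest to BomS2 (r = 0.977), which encodes a short secreted immune peptide and had 14.02 and 28.5 RPKM in *Tet null* IFM and at most 0.494 RPKM elsewhere in IFM. LysP was nearest to BomS3 (r = 0.995), of the same family, which had 7.02 and 19.1 RPKM in *Tet null* IFM and at most 0.206 RPKM elsewhere. Drs, the antifungal peptide drosomycin, was also among the 6 genes most like CG18180 (r = 0.955), with 58.6 and 112.9 RPKM in *Tet null* IFM, 8.77 and 7.13 RPKM in *Tet CD* IFM, 6.63 and 2.83 RPKM in *Tet-GFP* IFM, and 2.93 and 12.7 RPKM in wild type IFM. The rest of the 6 most like CG18180 were RtGEF (r = 0.961), CG4461 (0.958), BomS3 (0.956) and CG9512 (0.954). Those most like LysP after BomS3 were BomS1 (r = 0.994), CG10383 (0.990), CG9512 (0.983), BomS2 (0.978) and Nplp3 (0.977). The 2nd *Tet null* library was the higher for BomS2, BomS3 and Drs, as it was for LysP. The lists are a description, since CG18180 and LysP were chosen with their *Tet null* values in view.

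alphaTry was nearest to CG4734 (r = 0.946), at 0.297 and 0.443 RPKM in *Tet null* IFM and 11.4 and 0.0830 RPKM in wild type IFM, and to CG18404 (r = 0.941), at 0.530 and 0.134 RPKM in *Tet null* IFM and 10.9 and 0.0461 RPKM in wild type IFM. Both were high in the 1st wild type library and low in the 2nd, as alphaTry was.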
